A study of Mus musculus with 17 samples.

Results

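The early transcriptional response to IL-6 was examined in mouse bone marrow-derived macrophages that carry SOCS3. Members were taken by their labels: the 3 arrays of SOCS3+/+ cells stimulated for 100 min and the 2 arrays of unstimulated SOCS3+/+ cells, 5 of the 17 arrays of the series. Replicate 3 has no unstimulated SOCS3+/+ array here, so the comparison was also made within replicates 1 and 2, with 2 arrays a group. The SOCS3+/+ cells are called WT and the SOCS3-/- cells KO. Macrophages of both genotypes were differentiated from donor-derived marrow cells of mice that had been irradiated and reconstituted with embryonic fetal liver cells. IL-6 was given at 10 ng/ml, and total RNA was hybridised. The other 12 arrays hold WT cells at 400 min and KO cells that were unstimulated or stimulated for 100 or 400 min, 3 arrays each. Nothing in the labels ties the replicate numbers to separate cultures or mice. The p-values therefore cover the spread between these arrays alone, and that spread may be technical.

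IL-6 binds its receptor alpha chain (Il6ra) and the shared signalling chain gp130 (Il6st), which activates the kinases JAK1, JAK2 and TYK2 and then the transcription factor STAT3. SOCS3 is itself a STAT3 target. Its protein binds gp130 and shuts the receptor off, which in macrophages is known to keep the IL-6 response distinct from an interferon response.

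Levels are intensities after quantile normalization between arrays, and differences are on the log2 scale, stimulated minus unstimulated. For the test, values under an intensity of 22.01 were raised to it, so the fold of a gene near that floor is understated. The test was limma over all 17 arrays, or over the 12 arrays of replicates 1 and 2, with a call at a Benjamini-Hochberg adjusted p under 0.05 over 9871 probe sets. The median difference over all tested probe sets was -0.01, and 0.01 within replicates 1 and 2. The stimulated array of replicate 3 stood apart from the other 4. Its correlation with them over the tested probe sets was 0.824 to 0.856, against 0.874 to 0.917 among those 4. On the first principal component of all 17 arrays, which held 12.7% of the variance, it lay at 58.1, while no array of replicate 1 or 2 lay above 2.3. The 3' probe set of actin read 64015 on it and 16915 to 19514 on the other 4. The ratio of the 3' to the 5' probe set of GAPDH, a measure of RNA integrity and labelling, was 0.881 on it, 1.89 and 1.29 on the unstimulated arrays and 2.62 and 1.9 on the other stimulated arrays. Other arrays of replicate 3 shared much of this. The unstimulated KO array lay at 45.2, with actin at 58628 and a GAPDH ratio of 0.821. KO at 100 min lay at 30.5, with 39954 and 0.859. At 400 min WT lay at 26.6 and KO at 0.9 on that component. With no unstimulated WT array of replicate 3, the replicate and IL-6 cannot be told apart on its stimulated array. The part of these differences in the results that follow was not tested. Counts of calls over all probe sets are given with and without replicate 3, while for many genes the difference is given from 1 fit only. The fit within replicates 1 and 2 leaves out all arrays of that number.

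Over all 5 arrays, 1 of 9871 probe sets was called (0.0101%), and it was higher after IL-6: Il4ra, the alpha chain of the receptors for IL-4 and IL-13. Its intensity was 879.9 and 938 on the unstimulated arrays and 8581, 7917 and 4122 on the stimulated arrays of replicates 1, 2 and 3. Every stimulated array lay above both unstimulated ones, with the lowest stimulated value in replicate 3. Il4ra rose by 2.85 (SE 0.39), a 7.2-fold difference (limma adjusted p = 0.0456). It rose 9.07-fold within replicates 1 and 2, by 3.18 (SE 0.27; adjusted p = 0.00379). A second Il4ra probe set of much lower signal read 93.5 and 22.7 unstimulated and 189, 158 and 54.4 stimulated. The groups overlap on that probe set, and its difference of 1.35 did not pass the test (limma adjusted p = 0.89). Over 20 alternatives the difference of the first probe set was 2.65 to 3.18, its adjusted p 0.00036 to 0.323, and it was called in 13. It was not called in fits to the 8 WT arrays or the 5 arrays alone, nor without either unstimulated array, nor without the stimulated array of replicate 1 or 2. It was also lost without the array labelled KO at 400 min, replicate 3 (adjusted p = 0.0609), whose Socs3 level goes against its label and which enters this comparison only through the normalization and the shared spread. Those 7 fits called 0 probe sets in all but 1: without the unstimulated array of replicate 1, where the group is a single array assumed to vary like the others, 20 were called. At an unadjusted limma p under 0.05 there were 604 probe sets (6.12%), of which 345 probe sets (3.5%) were higher and 259 (2.62%) lower.

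**Figure D1:**
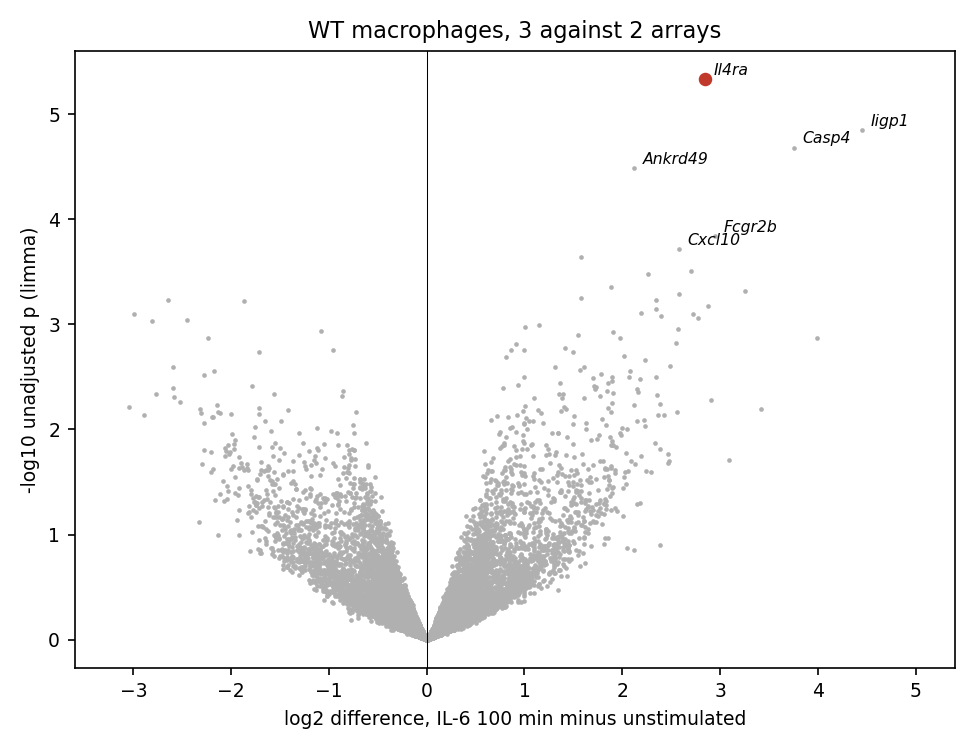
Each point is 1 of the 9871 tested probe sets: the log2 difference between 3 stimulated and 2 unstimulated WT arrays on the horizontal axis and −log10 of the unadjusted limma p on the vertical axis. The 6 probe sets with the smallest p all lie to the right of 0, and the red point, Il4ra at 2.85, is the 1 that was called.

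Within replicates 1 and 2, 17 probe sets were called (0.172%), all of them higher after IL-6. By role they are guanylate-binding proteins and immunity-related GTPases, which act against intracellular pathogens (Gbp7, Gbp3, Gbp2, Gbp2b, Ifi47, Igtp), chemokines that attract monocytes (Ccl2, Ccl7), the cytokine Il1b, the feedback inhibitor Socs3, the cytokine receptor chain Il4ra, the inhibitory Fc receptor Fcgr2b, the transcriptional inhibitor Id1, the secreted or membrane-bound protein Fgl2, the adhesion molecule Selp, the noncoding RNA Meg3, and 1 unnamed probe set. The differences ran from 1.71 for Il1b to 4.76 for Socs3. On 14 of the 17, all 3 stimulated arrays lay above both unstimulated ones; over all tested probe sets that share was 10.7%, and it was 58.4% (1061 of 1816) where both stimulated arrays of replicates 1 and 2 lay above. The choice of the 17 fixes most of this condition. On 16 of the 17 the replicate 3 array was the lowest of the 3 stimulated arrays, and the exception was Id1. On 17 arrays, 13 of the 17 had an unadjusted p under 0.05 and 1, Il4ra, was called. The calls of this fit draw on the spread of the KO and 400 min arrays: with the 6 WT arrays of replicates 1 and 2 alone limma called 0 probe sets, with 650 at an unadjusted p under 0.05. The 12 arrays gave 697 at that threshold (7.06%). Without the unstimulated array of replicate 1 the count was 46, of which 12 are among the 17. It was 8 (6 of the 17) without that of replicate 2, 5 (4 of the 17) without the stimulated array of replicate 1 and 2 without that of replicate 2. Gbp7 and the unnamed probe set were called in 8 of 9 alternative fits, Ccl2 and Ccl7 in 7, and Il4ra and Socs3 in 6. Il1b and Selp were called in 1.

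**Figure D2:**
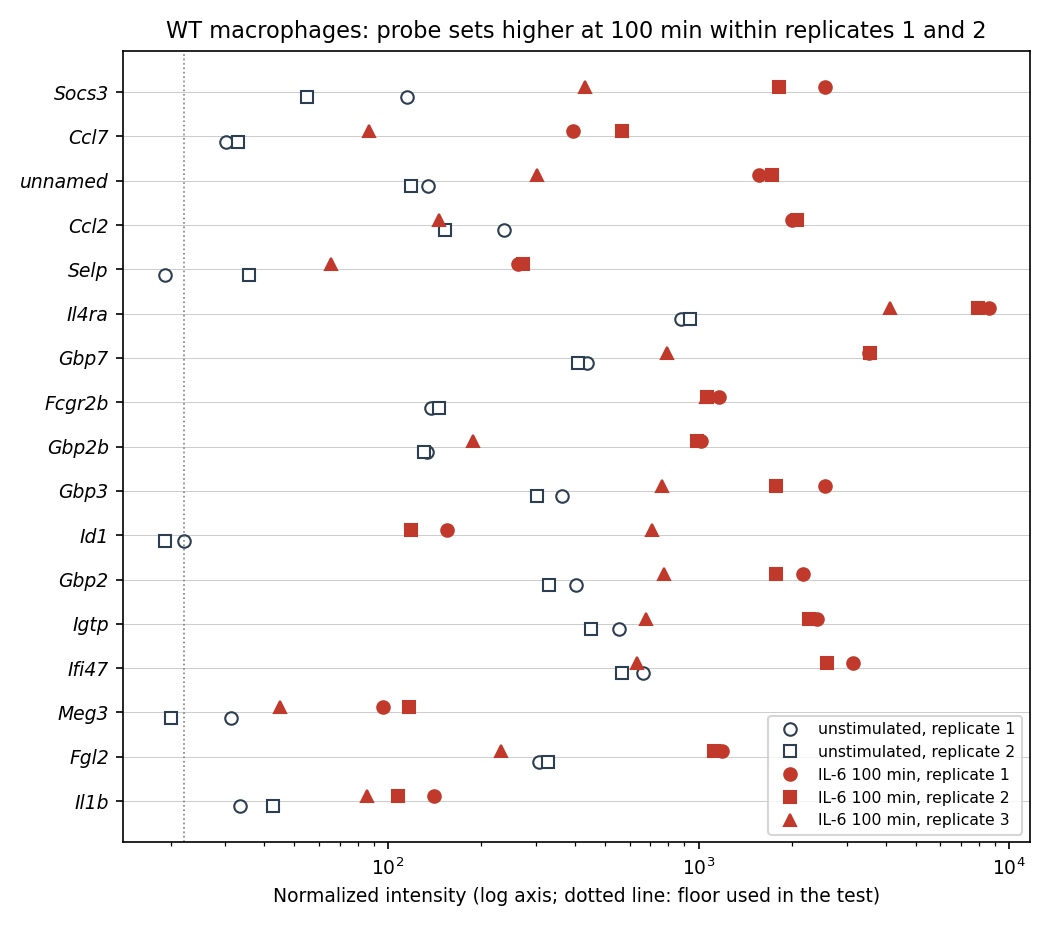
Normalized intensity (log axis) of the 17 probe sets called within replicates 1 and 2, on each of the 5 WT arrays: open symbols are unstimulated, filled red symbols are after 100 min of IL-6, and the symbol's shape gives the replicate. The filled circles and squares of replicates 1 and 2 lie to the right of the open symbols on every line, while the triangle of replicate 3 lies left of them on 16 of 17 lines and at 709, to the right, for Id1.

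Of the 16 named genes, 13 have a promoter in the RefSeq table used here (GRCm38.p6). The 250 bases before the start of 6 of them are shown, each 5' to 3' on the gene's strand: Il4ra and Socs3 as the receptor chain called over all arrays and the feedback inhibitor, and 4 further genes with small p-values, which include 3 guanylate-binding proteins. Capitals mark matches to TTCNNNGAA, the letters of a STAT binding site, and to GAAA, any 2 bases and GAAA again on either strand, the repeat of interferon response elements. The first motif reads the same on both strands, and the second was chosen after earlier results of these data were seen.
Il4ra promoter, chr7:125552021-125552270, plus strand: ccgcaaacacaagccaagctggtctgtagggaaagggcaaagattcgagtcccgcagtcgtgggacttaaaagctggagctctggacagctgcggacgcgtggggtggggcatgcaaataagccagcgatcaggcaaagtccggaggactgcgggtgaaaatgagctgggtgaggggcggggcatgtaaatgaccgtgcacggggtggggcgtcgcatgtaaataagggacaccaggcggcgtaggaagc
Socs3 promoter, chr11:117969367-117969616, minus strand: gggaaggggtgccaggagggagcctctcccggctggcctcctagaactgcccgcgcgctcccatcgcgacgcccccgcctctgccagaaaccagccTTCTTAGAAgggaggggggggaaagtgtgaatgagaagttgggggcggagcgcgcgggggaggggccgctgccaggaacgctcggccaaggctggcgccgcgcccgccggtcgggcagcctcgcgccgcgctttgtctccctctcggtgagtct
Gbp7 promoter, chr3:142530086-142530335, plus strand: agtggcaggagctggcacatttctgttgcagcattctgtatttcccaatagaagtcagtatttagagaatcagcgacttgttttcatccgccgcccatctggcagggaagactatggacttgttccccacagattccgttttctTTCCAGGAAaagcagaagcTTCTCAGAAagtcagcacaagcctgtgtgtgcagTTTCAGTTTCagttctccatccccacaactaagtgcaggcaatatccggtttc
Gbp2 promoter, chr3:142620413-142620662, plus strand: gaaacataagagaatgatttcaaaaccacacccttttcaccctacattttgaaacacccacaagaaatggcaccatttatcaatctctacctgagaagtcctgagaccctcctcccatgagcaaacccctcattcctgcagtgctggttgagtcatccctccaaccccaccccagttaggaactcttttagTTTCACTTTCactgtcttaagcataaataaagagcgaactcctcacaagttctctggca
Gbp2b promoter, chr3:142594597-142594846, plus strand: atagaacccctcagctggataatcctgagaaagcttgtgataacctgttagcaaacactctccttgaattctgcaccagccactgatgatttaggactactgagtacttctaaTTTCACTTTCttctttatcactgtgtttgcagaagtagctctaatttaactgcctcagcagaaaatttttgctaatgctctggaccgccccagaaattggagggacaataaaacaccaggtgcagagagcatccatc
Fcgr2b promoter, chr1:170976072-170976321, minus strand: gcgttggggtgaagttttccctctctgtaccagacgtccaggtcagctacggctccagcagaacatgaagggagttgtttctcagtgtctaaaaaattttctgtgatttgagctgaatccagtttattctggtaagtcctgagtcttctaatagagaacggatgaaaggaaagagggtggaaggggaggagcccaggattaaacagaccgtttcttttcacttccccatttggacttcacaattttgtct
TTCNNNGAA was found before a start of 4 of the 13 genes: at 2 places in Gbp7, and in Socs3, Fgl2 and Igtp. In the whole set, 8.13% of 27025 genes and 7.02% of 32851 promoters hold it. In Gbp7 the matches begin 106 and 87 bases before the start, and in Socs3 the match begins 154 bases before it. The GAAA repeat was found for 5 of the 13, Gbp7, Gbp2, Gbp2b, Gbp3 (at 1 of its starts) and Igtp, and for 3.46% of all genes, in 2.98% of promoters. The promoters of Il4ra and Fcgr2b hold neither in this window. A match is a description of the letters and not a measurement of binding.

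Socs3 had the largest difference among the 17. Its intensity was 115 and 54.9 on the unstimulated arrays and 2552, 1809 and 432 on the stimulated arrays. The groups do not overlap, and the value of replicate 3 is the lowest of the stimulated ones. Socs3 rose 27.1-fold within replicates 1 and 2, by 4.76 (SE 0.40; limma adjusted p = 0.00379). Over all 5 arrays its difference was 3.99 (SE 0.99; adjusted p = 0.395), which did not pass. A second Socs3 probe set read 181 and 80.3 unstimulated and 1290.1, 1186 and 483 stimulated, also without overlap, with a difference of 2.91 (adjusted p = 0.593). In KO cells, where the gene is targeted, the first probe set read 20.6, 23.6 and 16.5 unstimulated and 66.8, 86.2 and 179 at 100 min. Among the arrays labelled KO at 400 min it read 48.6, 78.5 and 903, and the second probe set 121, 79.4 and 793. The Socs3 level of the array labelled replicate 3 of that group thus goes against its label. Iigp1 read 2611 there, against 1245 and 1310.2 in the rest of its group and 21.9 to 159.9 in WT cells at 400 min. Gbp2 read 10522, against 8024 and 7891, with 546 to 947 in WT. Both go with the KO label. Gbp2b, at 249 against 3010.4 and 2934, lay nearer to the 114 to 210 of WT. It was also low on the other KO arrays of replicate 3, so its level does not bear on the label. At 100 min it read 150.4 there against 2829 and 2521, and unstimulated 14.8 against 154 and 140.4. Whether the label is right was not tested.

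The receptor and its kinases did not pass the test in either fit. Il6ra, which binds IL-6, read 274 and 41.2 unstimulated and 305, 283 and 237 stimulated. Its difference of 1.36 rests on the unstimulated array of replicate 2, without which it was -0.0019. Il6st, the gp130 chain, read 907 and 551 unstimulated and 901, 864 and 586 stimulated on the brighter of its probe sets. Stat3 read 1745 and 2059.7 unstimulated and 3294, 2586 and 1771 stimulated. Both stimulated arrays of replicates 1 and 2 lay above both unstimulated ones, by 0.62, and replicate 3 lay among the unstimulated values (adjusted p = 0.533 within replicates 1 and 2). Jak1, Jak2 and Tyk2 differed by -0.20 to 0.54 over 5 arrays, and the -0.20 of Jak1 was 0.0048 with median scaling. Of 17 tested genes of the receptor and the JAK-STAT pathway, 0 were called in either fit, with a median of -0.09. At an unadjusted p under 0.05, 1 was higher and 1 lower, against 3.5% and 2.62% of all tested probe sets.

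No other feedback inhibitor of cytokine signalling was called. Socs1, which inhibits the JAK kinases and is induced by interferons, read 236 and 156 unstimulated and 215, 255 and 59.7 stimulated. Cish and Socs2, both STAT5-responsive inhibitors, had differences of -0.22 and -0.07, and the sign of each turned under some alternatives. Of 15 tested genes in this list, with Socs3 entered by its second probe set, the brighter over all 17 arrays, 0 were called in either fit. At an unadjusted p under 0.05, 2 were higher, against 3.5% of all tested probe sets. The median of the list was -0.14. The phosphatase Ptpn2, which acts on STAT proteins, read 177 and 169 unstimulated and 325, 402 and 276 stimulated. The groups do not overlap, and its difference of 0.93 (SE 0.27) did not pass (limma adjusted p = 0.574). Dusp1, a phosphatase of MAP kinases, also lay above without overlap, with 965 and 821 unstimulated and 1189.9, 1161 and 1575 stimulated. Ptpn1, a phosphatase of JAK2 and TYK2, lay above in replicates 1 and 2 only, at 2379 and 1991 unstimulated and 3817, 3578 and 2201 stimulated. Both were named after their values were seen.

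A further list holds chains of the receptors for IL-4, IL-13 and IL-10. Il13ra1, the partner of Il4ra for IL-13, read 33.8 and 20.8 unstimulated and 234, 119 and 80.1 stimulated. All stimulated arrays lay above the unstimulated ones, and the difference of 2.26 (SE 0.48) did not pass (limma adjusted p = 0.366). Il10ra, the IL-10 receptor chain, read 732 and 600.1 unstimulated and 447, 557 and 129 stimulated, the opposite direction, with a difference of -1.06 that also did not pass (adjusted p = 0.813). Of the 4 tested chains in this list, Il4ra alone was called, both over 5 arrays and within replicates 1 and 2. Over all tested probe sets the shares called were 0.0101% and 0.172%.

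Guanylate-binding proteins and immunity-related GTPases made up the list with the highest median. Of 8 tested members, 5 were called within replicates 1 and 2, against 0.172% of all tested probe sets. Over all 5 arrays 0 were called, and all 8 were higher at an unadjusted p under 0.05, against 3.5% of all. The median was 1.80 over 5 arrays and 2.32 within replicates 1 and 2. Gbp7 read 439 and 408 unstimulated and 3539, 3551 and 792 stimulated. The stimulated values of replicates 1 and 2 are close to each other, and that of replicate 3 is the nearest to the unstimulated ones without overlap. Gbp7 rose 8.37-fold within replicates 1 and 2, by 3.06 (SE 0.20; limma adjusted p = 0.00182), and over 5 arrays the difference was 2.34 (SE 0.54; adjusted p = 0.369). Gbp2 read 404 and 331 unstimulated and 2162, 1769.9 and 775 stimulated, a rise of 2.42 within replicates 1 and 2. Gbp3, with 364 and 302 against 2550.2, 1776 and 762, rose by 2.68. Both repeat the order of Gbp7, with replicate 3 between the groups.

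Gbp2b, which is outside that list, read 134 and 131 unstimulated and 1022, 991 and 188 stimulated, and rose by 2.93 within replicates 1 and 2. Ifi47, an immunity-related GTPase, read 662 and 569 unstimulated and 3149, 2600 and 635 stimulated. Here the replicate 3 array lay inside the unstimulated range, and the rise of 2.22 (adjusted p = 0.0125 by limma) is one of replicates 1 and 2. Igtp, a related GTPase, read 554 and 449 unstimulated and 2406, 2268 and 679.5 stimulated, and rose by 2.23. The remaining members were not called in either fit. Iigp1, which acts on the vacuoles of intracellular parasites, had the largest difference of the list. It read 24.9 and 16.1 unstimulated and 760.3, 517 and 339 stimulated, with no overlap. Its difference was 4.45 (SE 0.68), with a limma adjusted p of 0.0684 over 5 arrays and of 0.101 within replicates 1 and 2. Over 20 alternatives its adjusted p was 0.00376 to 0.382, and it was called in 7, among them the fit with a replicate block (0.0319). A second Iigp1 probe set gave 3.25. Irgm1 and Irgm2, regulators of the other GTPases of the family, had differences of 1.41 and 1.58 without overlap. Members of these families are close in sequence, and whether single probe sets cross-hybridise was not tested.

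Genes stimulated by type I interferon were described separately. Of 32 tested, 0 were called in either fit, and 4 were higher at an unadjusted p under 0.05 over 5 arrays, against 3.5% of all. The median was 0.26 over 5 arrays and 0.55 within replicates 1 and 2. For 24 of the 32, both stimulated arrays of replicates 1 and 2 lay above both unstimulated ones, against 18.4% of all tested probe sets. Over 5 arrays 6 lay above without overlap and 2 below, against 10.7% and 11.3% of all. The summed intensity of the list was 81339 and 80848 unstimulated and 100990, 99499 and 51870 stimulated. The replicate 3 array thus lay below the unstimulated arrays and the other stimulated arrays above them. Ifit1, a sensor of foreign RNA, read 989 and 703 unstimulated and 2806, 2504 and 310.4 stimulated. Ifit2, of the same family, read 802 and 598 unstimulated and 2134, 1557 and 252 stimulated. Both follow the order of the summed list and were named after their values were seen. Cxcl10, a chemokine for activated T cells, went the other way within the stimulated group, with 181 and 67.3 unstimulated and 485, 578 and 1015 stimulated. Its difference of 2.58 (SE 0.51) did not pass (limma adjusted p = 0.316).

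Irf1, a transcription factor of the interferon response, read 960.2 and 913 unstimulated and 1374, 1357 and 911 stimulated. The difference was 0.54 within replicates 1 and 2 (limma adjusted p = 0.708). Of 7 tested interferon regulatory factors, 0 were called and 0 had an unadjusted p under 0.05 over 5 arrays, with a median of -0.11. In the list of MHC class I and peptide processing the median was 0.10 over 14 tested genes. Tap1, the peptide transporter, was its member with the smallest p among those higher: 1230.3 and 1194 unstimulated and 2032, 2231 and 1438 stimulated, with no overlap and a difference of 0.62 (adjusted p = 0.76).

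The list of STAT3, IL-6 and IL-10 targets had 45 tested members. Of these 1, Il4ra, was called over 5 arrays and 4 within replicates 1 and 2, against 0.0101% and 0.172% of all probe sets. Over 5 arrays 21 lay above without overlap and 3 below, against 10.7% and 11.3% of all tested probe sets. At an unadjusted p under 0.05, 13 were higher, against 3.5% of all. The median was 0.54, and 0.60 within replicates 1 and 2. Fcgr2b, the inhibitory receptor for IgG, was steady across stimulated arrays: 138 and 146 unstimulated against 1164, 1062 and 1059.6. The groups are far apart and replicate 3 does not differ from the others. Fcgr2b rose 7.84-fold within replicates 1 and 2 (by 2.97, SE 0.30; limma adjusted p = 0.00896). Over 5 arrays the difference was 2.95 (SE 0.57), with an adjusted p of 0.284. Of 6 tested Fc receptors it was the 1 called within replicates 1 and 2, against 0.172% of all tested probe sets.

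Several other members of the list lay above without overlap and did not pass. Pim1, a survival kinase, read 1105 and 1364 unstimulated and 3043, 2691 and 1864 stimulated, a difference of 1.01 (SE 0.24; limma adjusted p = 0.383). Bcl3, a nuclear partner of NF-kappaB, read 717 and 748 unstimulated and 2201, 1972 and 1246 stimulated, a difference of 1.26. Cebpb, a transcription factor of acute phase genes, read 1785 and 1984 unstimulated and 3288, 3157 and 5157 stimulated, a difference of 1.00. In Pim1 and Bcl3 the replicate 3 array is the lowest of the stimulated arrays, and in Cebpb it is the highest. Among the unstimulated KO arrays replicate 3 was likewise the lowest for Pim1 and Bcl3 and the highest for Cebpb (1892, 1616 and 3131). Junb, an AP-1 subunit, had a difference of 0.99 on 1 probe set and 0.72 on another, and Fos, its partner, of -0.21. Gadd45g, a stress-induced gene, read 203 and 274 unstimulated and 792, 645 and 729.9 stimulated. Its groups do not overlap and the stimulated arrays are alike, with a difference of 1.61 (SE 0.44; adjusted p = 0.516).

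The chemokine list had 21 tested members, 2 of them called within replicates 1 and 2, against 0.172% of all tested probe sets. Ccl2, the main monocyte attractant, read 236 and 153 unstimulated and 1998, 2079 and 146 stimulated. The replicate 3 array lay below both unstimulated arrays. Ccl2 rose 10.7-fold within replicates 1 and 2, by 3.42 (SE 0.26; limma adjusted p = 0.0032), and its difference over 5 arrays was 2.15 (SE 1.01; adjusted p = 0.814). Ccl7, a neighbouring chemokine of like function, read 30.2 and 32.9 unstimulated and 394, 568 and 86.8 stimulated. It rose by 3.91 within replicates 1 and 2 (adjusted p = 0.00379), and its replicate 3 array lay between the groups. Ccl12, a further monocyte chemokine, read 37.1 and 17.4 unstimulated and 243, 290.4 and 51.6 stimulated, the same order, and did not pass in either fit. The median of the list was 0.18. Of 24 tested NF-kappaB inflammatory genes 1, Il1b, was called within replicates 1 and 2, against 0.172% of all. It was dim, at 33.4 and 42.8 unstimulated and 141, 108 and 85.6 stimulated, and rose by 1.71 (adjusted p = 0.0458). The median of that list was 0.19.

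**Figure D3:**
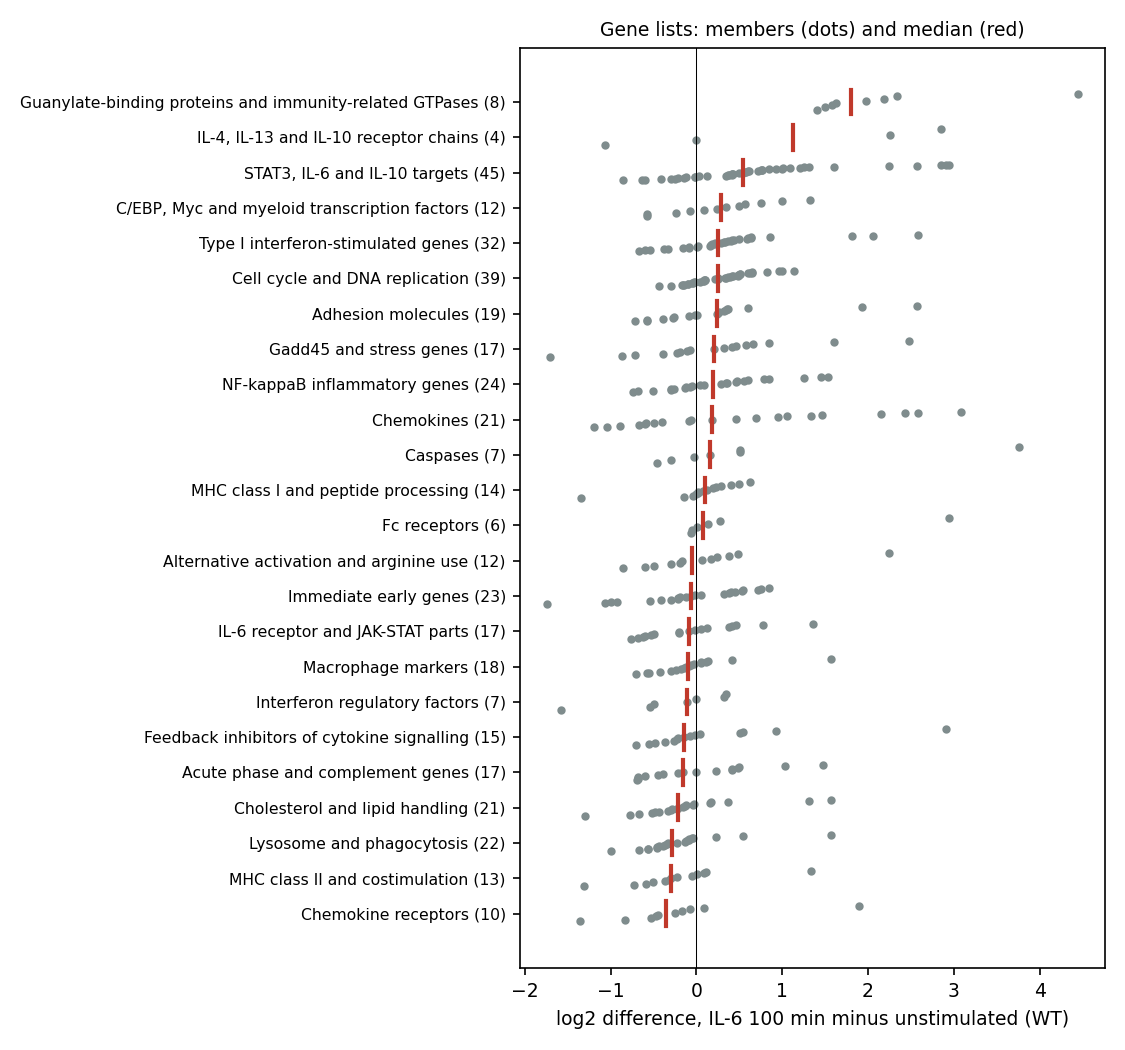
log2 difference of each tested member (dots) of the gene lists over all 5 arrays, with the list's median as a red bar and the number of tested members in brackets; marker lists of cells other than macrophages are left out. The GTPase list lies wholly to the right of 0 with a median of 1.80, and the next of more than 10 members, the STAT3 targets, has a median of 0.54, while the receptor and JAK-STAT list has -0.09.

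Id1, Selp and Meg3 were dim when unstimulated. Id1, an inhibitor of basic helix-loop-helix factors, read 22.1 and 19.2 unstimulated and 155, 119 and 709 stimulated. It was the called gene on which replicate 3 was the highest, and it rose by 2.63 within replicates 1 and 2 (SE 0.26; limma adjusted p = 0.00875). On the unstimulated KO arrays Id1 read 49.1, 75.7 and 325, again with replicate 3 the highest. P-selectin (Selp), which captures leukocytes on platelets and endothelium, read 19.1 and 35.8 unstimulated and 262, 272 and 65.4 stimulated. Meg3, a noncoding RNA, read 31.2 and 20 unstimulated and 96.8, 117 and 44.8 stimulated. Neither overlaps, and replicate 3 lies nearest to the unstimulated arrays on both. Fgl2, fibrinogen-like protein 2, read 306 and 328 unstimulated and 1193, 1118 and 232 stimulated, so that replicate 3 lay below the unstimulated arrays. It rose by 1.87 within replicates 1 and 2 (adjusted p = 0.0318). The unnamed probe set read 135 and 119 unstimulated and 1561, 1725 and 302 stimulated and rose by 3.70 (adjusted p = 0.00116).

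Casp4, Ankrd49 and Ugcg had small p-values over 5 arrays with replicate 3 above the other stimulated arrays. Casp4, the caspase that senses cytosolic lipopolysaccharide, read 92.8 and 11.3 unstimulated and 498, 604 and 763 stimulated. The groups do not overlap, and its difference of 3.76 (SE 0.59) was short of the threshold (limma adjusted p = 0.0684). Casp4 was called in 5 of 20 alternatives, with an adjusted p of 0.00376 to 0.648. Ankrd49, an ankyrin repeat protein, read 65.4 and 44.3 unstimulated and 199.8, 195 and 326 stimulated, with a difference of 2.12 (adjusted p = 0.0804). Ugcg, which makes glucosylceramide, read 19.1 and 15.1 unstimulated and 121, 115 and 209 stimulated, a difference of 2.70 (adjusted p = 0.366). A second and brighter Ugcg probe set read 238 and 75 unstimulated and 518, 726 and 260.1 stimulated, a difference of 1.78, and there replicate 3 was the lowest stimulated array. Cd86, a costimulatory ligand for T cells, read 9.51 and 7.56 unstimulated and 137, 111 and 103 stimulated, and its second probe set 84.7 and 68.2 against 236, 176 and 173. On both probe sets the groups do not overlap, and neither passed the test (differences of 2.40 and 1.34). In KO cells Ankrd49 differed by 0.42 and the first Ugcg probe set by 0.43 over all arrays. There the unstimulated arrays read 164, 192 and 152 for Ankrd49 and 136, 39.8 and 207 for Ugcg, above the unstimulated WT arrays. Casp4 differed by 1.96 in KO cells and the first Cd86 probe set by 1.01.

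No probe set was called lower in either fit, and 259 were lower at an unadjusted p under 0.05 over 5 arrays. All 3 stimulated arrays lay below both unstimulated ones for 11.3% of tested probe sets, about the share that lay above. Without overlap, 325 (3.29%) were at least 2-fold lower and 369 (3.74%) at least 2-fold higher. The 8 lower genes with the smallest p included Foxq1, a forkhead transcription factor, at 132 and 169 unstimulated and 15.7, 19.5 and 28.1 stimulated, a difference of -2.65 (SE 0.59; limma adjusted p = 0.369). Spib, an Ets factor of B cells and dendritic cells, had a difference of -1.87 on 1 probe set and 0.64 on another. Kars, Rab17, Afp and Cd247 ended near the floor on the stimulated arrays. The second Afp probe set differed by 0.51, opposite to the -2.81 of the first. Usp3, a ubiquitin protease, is bright throughout: 979.6 and 992 unstimulated and 486, 421 and 634 stimulated, a difference of -0.96 (adjusted p = 0.435). Sesn1, a stress-responsive gene, read 5023 and 5393 unstimulated and 2379, 2242 and 758 stimulated. Its groups do not overlap and it differed by -1.71 (adjusted p = 0.615).

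Macrophage markers were bright on every array: Csf1r, the receptor for the macrophage growth factor, read 15195 to 32965 and Lyz2, lysozyme, 26739.6 to 32381. Summed over 18 tested macrophage markers, the intensity was 240437 and 214059 unstimulated and 234184, 221549 and 189576 stimulated, with a median difference of -0.10. The replicate 3 array was the lowest of the 5 for 9 of the 18, Csf1r among them, and the highest for 5: Lyz2, Lgals3, Ctss, Cd68 and Msr1. Of 11 tested B cell markers, the sum was 6663 and 7535 unstimulated and 4907, 5415 and 2244 stimulated, and 0 were called in either fit. Most of it is Ighm, the immunoglobulin mu chain, at 5135 and 5859.9 unstimulated and 3479, 3732 and 615 stimulated on its brightest probe set. Of its dimmer probe sets some were lower after IL-6 and others higher. A higher one read 40.7 and 16.1 unstimulated and 143, 132 and 62.5 stimulated, a difference of 1.82. Without Ighm the sum of the other 10 was 1528 and 1674 unstimulated and 1429, 1683 and 1630.2 stimulated, so the low sum of replicate 3 is that of the brightest Ighm probe set. The defining B cell genes Ms4a1 and Cd79b read 165 to 243 and 155 to 351 over the 5 arrays, and Pax5 134 to 446. Summed over 39 cell cycle genes the intensity was 48259 and 45436 unstimulated and 47799, 46444 and 73013 stimulated. The replicate 3 array was the highest of the 5 for 29 of the 39. The part of these differences in its values for IL-6-responsive genes was not tested. Fewer cells of a type and less RNA per cell cannot be told apart in such bulk samples. Of 10 tested T and NK cell markers the median was 0.56, with sums of 785 and 931 unstimulated and 1241, 1266 and 1083 stimulated.

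Over time, Il4ra, Socs3, Fcgr2b and Pim1 were as high at 400 min as at 100 min or higher, by their means. Il4ra read 11502, 11502 and 9603 on the WT arrays at 400 min, and Socs3 2400.5, 2036 and 2117. Neither differed between the times by the test (limma adjusted p = 0.681 and 0.99 within replicates 1 and 2). Fcgr2b read 905, 1575 and 4097 at 400 min, so its higher mean rests mostly on replicate 3. Within replicates 1 and 2 it differed by 0.10 from 100 min. Most guanylate-binding proteins and GTPases were near or below their unstimulated level. Gbp7 read 395, 434 and 575 at 400 min, and it fell by 3.10 from 100 min within replicates 1 and 2 (adjusted p = 0.00168). Ifi47, Gbp2b, Gbp3, Igtp, Irgm1 and the unnamed probe set fell as well. Ifit1, Ifit2 and Ifit3, named here after their values were seen, also fell, by 2.19, 2.41 and 2.33. Ccl2 read 595, 681 and 164 and Ccl7 143, 262 and 7.24 at 400 min, and neither fall passed. In the fit of replicates 1 and 2, 16 probe sets were called between the times (0.162%), 13 lower (0.132%) and 3 higher at 400 min, and 6 of the 13 are among the 17 that rose at 100 min. Over all arrays limma called 0, with 622 (6.3%) at an unadjusted p under 0.05. The comparison shares the stimulated arrays with the one above.

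**Figure D4:**
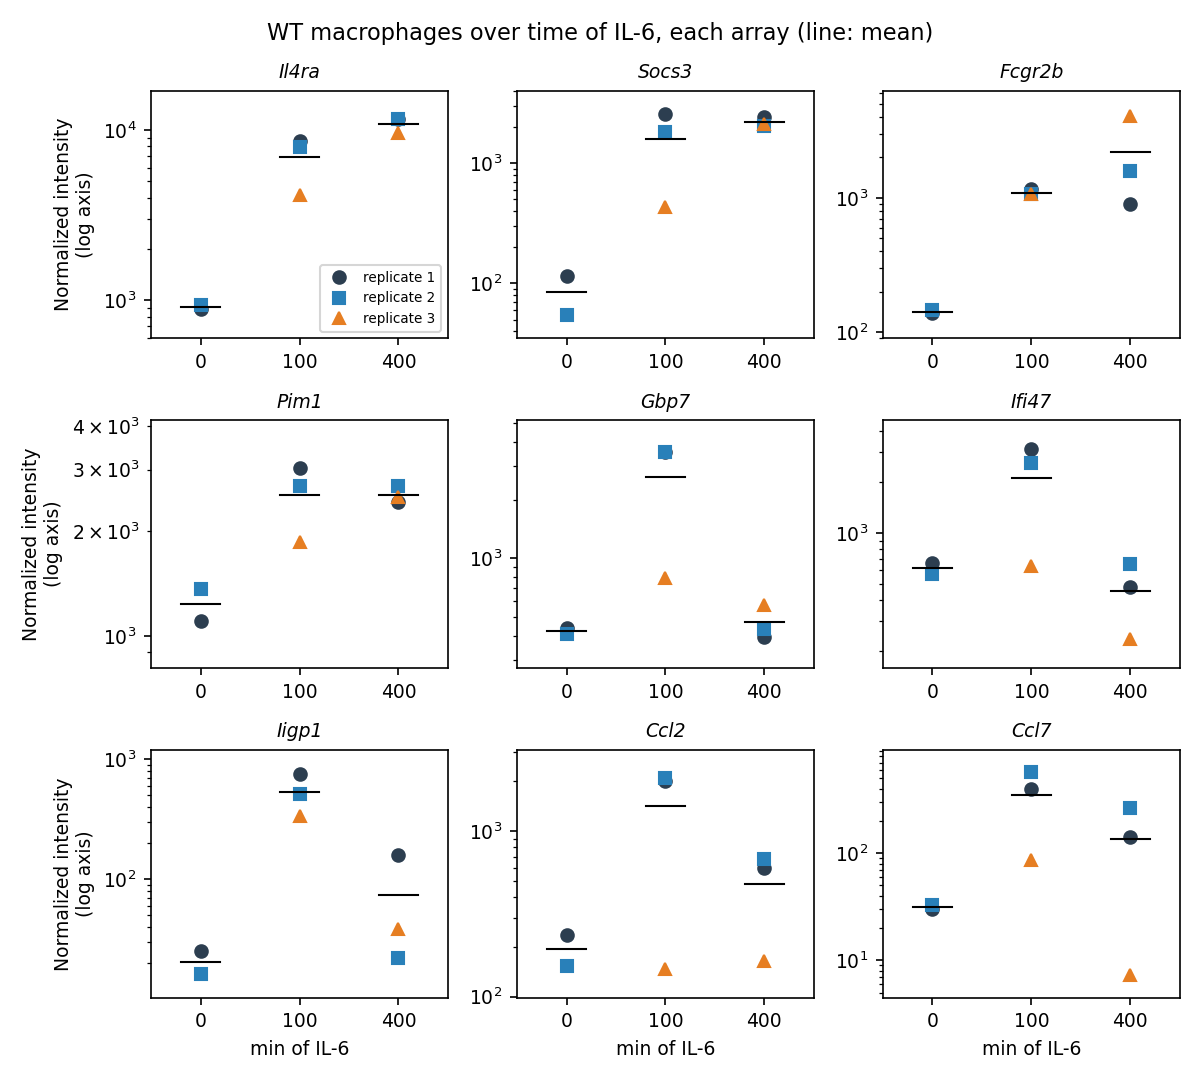
Normalized intensity (log axis, its range set for each gene) of 9 genes on each WT array against the time of IL-6 in min; symbols give the replicate and the line the group mean. Il4ra, Socs3, Fcgr2b and Pim1 stay up at 400 min, while Gbp7, Ifi47 and Iigp1 return towards the unstimulated values; replicate 3 has no array at 0 min.

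The same stimulation of KO cells gave 53 probe sets called higher (0.537%) and 4 lower (0.0405%) over all arrays, and 11 of the 17 WT genes were among them. Without the array labelled KO at 400 min, replicate 3, the counts were 56 and 7, and again 11 of the 17. The 17 were chosen by another fit, the one within replicates 1 and 2. In that fit all of them but Socs3 and Meg3 were called higher in KO cells (limma adjusted p = 0.119 and 0.683 for these). That fit also chose the 17, with a spread that both genotypes share, so this overlap is not independent. The share of all probe sets that it called in KO cells is not given here. Gbp7 read 447, 344 and 359 unstimulated and 4865, 4616 and 2197 at 100 min in KO cells, a rise of 3.27 (limma adjusted p = 0.00533). Il4ra rose by 3.37 there and Ccl2 by 4.74. Here too the replicate 3 array was the lowest of the stimulated arrays for Gbp7 and Ccl2. Whether the response differed by genotype was tested itself: 0 probe sets were called over all arrays and 0 within replicates 1 and 2, with 361 (3.66%) and 505 (5.12%) at an unadjusted p under 0.05. Without the unstimulated WT array of replicate 1, 3 were called over all arrays. For Il4ra the KO response exceeded the WT response by 0.42 (SE 0.38) within replicates 1 and 2, and for Gbp7 by 0.53 (SE 0.29). Irf1 had a larger difference between the responses, 2.39 (SE 0.33; adjusted p = 0.215), and so had Ch25h, which makes 25-hydroxycholesterol, at 2.61 (SE 0.53; adjusted p = 0.342). In WT cells Ch25h read 163 and 210 unstimulated and 599, 719.9 and 222 stimulated, and in KO cells 234, 106 and 164 against 3502, 3348 and 1850.1. The KO values at 100 min lie above all WT values for that gene. Socs3, the targeted gene, had -3.02 (adjusted p = 0.318) and Meg3 -2.45 (adjusted p = 0.215). None of these differences passed.

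**Figure D5:**
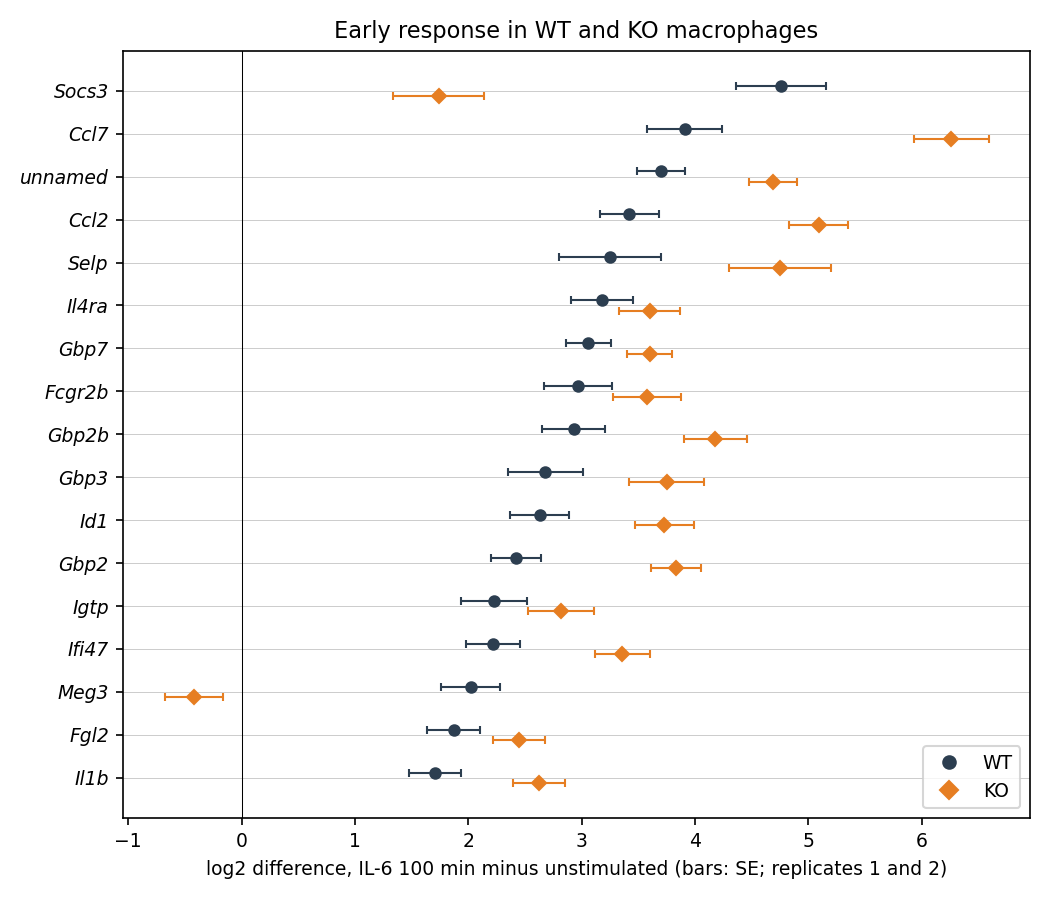
log2 difference between 100 min of IL-6 and unstimulated cells for the 17 probe sets called in WT within replicates 1 and 2, in WT (circles) and KO (diamonds) cells, 2 arrays a group, with the standard error of the fit as bars. The KO value is the higher on every line except Socs3 (1.74 against 4.76) and Meg3 (-0.42 against 2.02); the WT values chose the genes, and no difference between the genotypes was called.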

How the data were processed

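The deposited values are linear intensities of 12488 probe sets on each of 17 arrays; how the authors computed, background-corrected and scaled them is not given in the sources used here. On every array the trimmed mean deposited intensity was 499 to 500, so values had been scaled per array, and array medians lay between 164.25 and 216.95. No detection calls were used, and the number of arrays limits the precision.

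Values were quantile normalized, raised to the 10th percentile of all values (22.01) and log2 transformed. The test took probe sets that exceeded the 40th percentile of 2 or more arrays, without 66 controls, which kept 9871 (8730 with 1 symbol, 7063 genes). The platform annotation gave 1 symbol to 10855 probe sets, several to 396 and none to 1237; 0 were updated. limma 3.58.1 in R 4.3.3 fitted 1 mean per group, with two-sided moderated tests (prior and residual degrees of freedom 2.6 and 11 for 17 arrays, 2.0 and 6 for 12). The 5 arrays share the spread estimated over 6 groups. The script was tested on simulated data, with the spread of all 17 arrays and arrays independent of each other. There a log2 change of 1 was called for 2% of changed probe sets within replicates 1 and 2 and for 6% over 17 arrays. A change of 4 was called for 84% and 92%. Unchanged probe sets among the calls numbered 11 and 3. A probe set that was not called may therefore have changed.

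Named genes were: all called probe sets; the 8 higher and 8 lower genes with the smallest p whose groups do not overlap; up to 2 further members a list at an unadjusted p under 0.05; and a list of pathway genes. Some of them are given only in counts. Lists use each gene's brightest probe set. Members, lists and the rule were chosen with earlier results of these data known. Il2rg was not analysed here, and Ptpn11 was too dim. Alternatives were other samples in the fit, batch and replicate terms, normalizations, floors, filters and leaving out each array.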

Additional observations from a re-analysis of the deposited data

How the results depend on the processing

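Over all 5 arrays the count of called probe sets was 1. It was 0 with only the 8 WT arrays (540 at an unadjusted limma p under 0.05) and with only the 5 arrays compared (523). It was 2 without normalization between arrays, with a pseudocount of 16 in place of the floor and without the filter, 3 with median scaling, a floor at the 20th percentile, a stricter filter or replicate 3 as a batch term, and 5 with a trended and robust fit. Leaving out 1 array gave 0 to 20: 20 without the unstimulated array of replicate 1 (0 of them among the 17 called within replicates 1 and 2), 4 without the stimulated array of replicate 3 and 0 without any other, or without the array labelled KO at 400 min, replicate 3 (651 unadjusted). That alternative was chosen after the data were seen, and it left the counts for response by genotype and for 400 against 100 min at 0 (391 and 696 unadjusted).

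The count in replicates 1 and 2 was 17. Alternatives for this fit were chosen after the data were seen. It was 0 with only the 6 WT arrays (650 unadjusted), 22 when the 12 arrays were normalized alone, and 17 with no normalization or median scaling (13 and 14 of the same probe sets). Leaving out 1 array gave 2 to 46. For the response compared by genotype the count of 0 became 3 without the unstimulated WT array of replicate 1, with 0 to 3 over the arrays left out. Between 400 and 100 min it was 0, and 16 within replicates 1 and 2.

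Same-numbered WT arrays deviated from their group means with correlations of 0.04 and 0.035. With 2 unstimulated arrays the deviations mirror each other, and the mean of the stimulated arrays includes replicate 3. A pairing could therefore not be excluded, and the main fit used none. Over all 6 groups the 10 pairs of number 3 correlated at 0.1 to 0.236 (median 0.137), and the pairs of numbers 1 and 2 at -0.016 to 0.11; unstimulated WT cells have no array of number 3. With replicate number as a block the count was 5 over all arrays and 12 within replicates 1 and 2 (11 of the 17); Iigp1 was called with it over all arrays, and 5 between 400 and 100 min.

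Of 1773 values of 90 named probe sets under alternatives, 1693 kept direction and side of the threshold, 51 passed it only under the alternative, 7, all of Il4ra, lost it and 22 of 9 probe sets changed sign. In replicates 1 and 2, with or without a block, Jak2 (1 probe set) was -0.20, Socs1 0.29 and Jak1 0.15. Jak1 was 0.0048 with median scaling, Cish 0.15 with a replicate block or a batch term, and Socs2 0.10 with the floor at the 20th percentile. Over the arrays left out, Il6ra ranged from -0.0019 to 2.73, Jak2 from -0.20 to 0.97, Socs1 from -0.76 to 0.29, Jak1 from -0.38 to 0.15, Fos from -0.68 to 0.04, Cish from -0.48 to 0.03, Il6st from -0.24 to 0.48, Socs2 from -0.65 to 0.63 and Tyk2 from -1.50 to 1.46. The cause was not tested.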

Other observations

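At least 4-fold differences without overlap over the 5 arrays were found for 58 probe sets (0.588%) that were higher and 42 (0.425%) that were lower. Lysosome and phagocytosis genes had a median difference of -0.28 over 22 tested members and of -0.07 within replicates 1 and 2, with 0 called in either fit. For 12 genes of alternative activation and arginine use, a programme that IL-4 receptor signalling turns on in macrophages, the median was -0.05, and 0 were called. For 21 genes of cholesterol and lipid handling it was -0.21, with 0 called. Of 17 acute phase and complement genes, many of them liver targets of IL-6, 0 were called and the median was -0.15.

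Msr1, a scavenger receptor, read 277 and 363 unstimulated and 681, 615 and 1999.7 stimulated, and Cd44, an adhesion receptor, 134 and 94.5 against 234, 269 and 1256. On both, the replicate 3 array is far above the other stimulated arrays, and neither passed the test (limma adjusted p = 0.778 and 0.76). Replicate 3 was also the highest in KO cells without IL-6. Msr1 read 1361, 867 and 2386 on the unstimulated KO arrays of replicates 1, 2 and 3, and Cd44 435, 245 and 1505. With no unstimulated WT array of replicate 3, the part of this in the WT differences was not tested. Ccr1, a chemokine receptor, read 168 and 168 unstimulated and 499.8, 422 and 1167 stimulated in WT cells, with no overlap and a difference of 1.90 (adjusted p = 0.556). On the unstimulated KO arrays Ccr1 read 327, 344 and 342, without a higher replicate 3.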
